A study of Arabidopsis thaliana with 6 samples.

Results

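AKINBETA1 (AT5G21170, chromosome 5) and GAT1_2.1 (AT1G15040, chromosome 1) are 2 Arabidopsis genes linked to the carbon and nitrogen status of the plant, and they were measured by 3 probe sets of the 22746 tested on the array. AKINBETA1 had 1 probe set (246028_at) and GAT1_2.1 had 2 (260741_at and 260743_at). Both genes were chosen by their high signal in the ethylene arrays against the air arrays of these same data. Their values in that comparison, and in the comparison of the amiR-ETP1/2 line with the ethylene arrays, are therefore given as a description with no test. The rule that chose the genes did not use the comparison of amiR-ETP1/2 with air, which was tested. It shares the air arrays with the ethylene comparison, and earlier results of these data were known when the genes were chosen.

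Total RNA of Arabidopsis thaliana was hybridised to 6 Affymetrix ATH1 arrays, 2 for each of 3 groups of plants labelled as 3 weeks old. The first group was wild-type Col-0, kept in air labelled as hydrocarbon-free. The second was Col-0 given ethylene gas at 10 ppm, for 4 h by the design text and the sample characteristics but for 24 h by the array titles. The third was the line amiR-ETP1/2 in the Col-0 background, in which an artificial microRNA is directed against the F-box protein genes ETP1 and ETP2. No gas is labelled for this line. The labels do not name the promoter that drives the artificial microRNA, the number of independent lines, the organ sampled or the number of plants pooled. The protocol describes medium with 10 g of sucrose per litre and foil-wrapped plates, then soil under 16 h of light and 8 h of dark, and does not tie a stage to the arrays.

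SnRK1 is the plant relative of the yeast SNF1 and animal AMPK kinases, and is known for switching metabolism from growth to breakdown when sugar or light runs short. It is built from a catalytic alpha subunit, a beta subunit that bridges the complex and helps to place it in the cell, and a gamma-type subunit. AKINBETA1 encodes a beta subunit that carries a carbohydrate-binding domain. Class I glutamine amidotransferases take the amide nitrogen of glutamine and pass it to other molecules. GAT1_2.1 encodes a protein with a domain of this class, and what that protein does with glutamine was not measured here. The GAT1_2.1 gene has been described in Arabidopsis as responsive to nitrogen supply. Levels below are the deposited values, read as log2 from their range, so that a step of 1 is a doubling of signal. Probe sets differ in how strongly they hybridise, so levels are compared between arrays and not between probe sets. The percentile of a signal within its array is given only to place it in that array's range of values.

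The arrays as a whole set the scale for both genes. The ethylene arrays differed widely from the others, with Pearson's r across probe sets of 0.791 to 0.810 against air, compared with 0.975 to 0.981 between amiR-ETP1/2 and air and 0.985 to 0.993 within groups. The 4 measured of 10 green tissue markers (RCA, LHCB4.2, PSAE-1 and PSBY) lay above the array median on every array, and their summed linear signal was 28500 to 29900 under air, 27300 to 28800 in amiR-ETP1/2 and 3860 to 3990 under ethylene. The 3 measured of 10 root markers (EXPA7, EXPA18 and AGL42) summed to 45.6 and 71.6 under air, 46.0 and 55.7 under ethylene and 44.2 and 56.8 in amiR-ETP1/2, and none of them lay above the array median throughout. In the actin control the 3' end exceeded the middle by 0.32 and 0.83 log2 units under air, 2.17 and 2.02 under ethylene and 0.89 on each amiR-ETP1/2 array. In the GAPDH control the 3' end exceeded the 5' end by 0.77 to 1.76 log2 units over the air and ethylene arrays and by 0.52 and 0.66 in amiR-ETP1/2. The part of these shifts in the results below was not tested, and fewer cells of a type cannot be told apart from less RNA per cell.

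The log2 level of AKINBETA1 was 6.96 and 6.44 under air, 10.46 and 10.53 under ethylene and 5.52 and 5.64 in amiR-ETP1/2. The 3 groups did not overlap, and their order was amiR-ETP1/2, then air, then ethylene. The same order without overlap held for 7.50% of all probe sets. The air arrays were the most spread, with an SD of 0.37 (n = 2) against 0.05 under ethylene and 0.08 in amiR-ETP1/2. Within each array the AKINBETA1 signal stood at percentiles 83.1 and 79.9 of all probe sets under air, 98.7 on both ethylene arrays, and 69.7 and 69.0 in amiR-ETP1/2.

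GAT1_2.1 had log2 levels on its brighter probe set, 260741_at, of 3.74 and 3.99 under air, 10.69 and 10.67 under ethylene and 3.60 and 4.01 in amiR-ETP1/2. The ethylene arrays stood far above the other 4, which overlapped. The gene's signal lay at percentiles 22.9 and 33.1 under air and 14.4 and 37.5 in amiR-ETP1/2, and at 98.9 or higher on both ethylene arrays. On the dimmer probe set, 260743_at, the levels were 3.78 and 3.85 under air, 6.23 and 5.65 under ethylene and 3.65 and 3.85 in amiR-ETP1/2. The groups fell in the same pattern, with both ethylene arrays above the other 4 and with amiR-ETP1/2 overlapping air (percentiles 17.8 to 30.8 in these 2 groups, and 76.9 and 69.0 under ethylene).

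**Figure D1:**
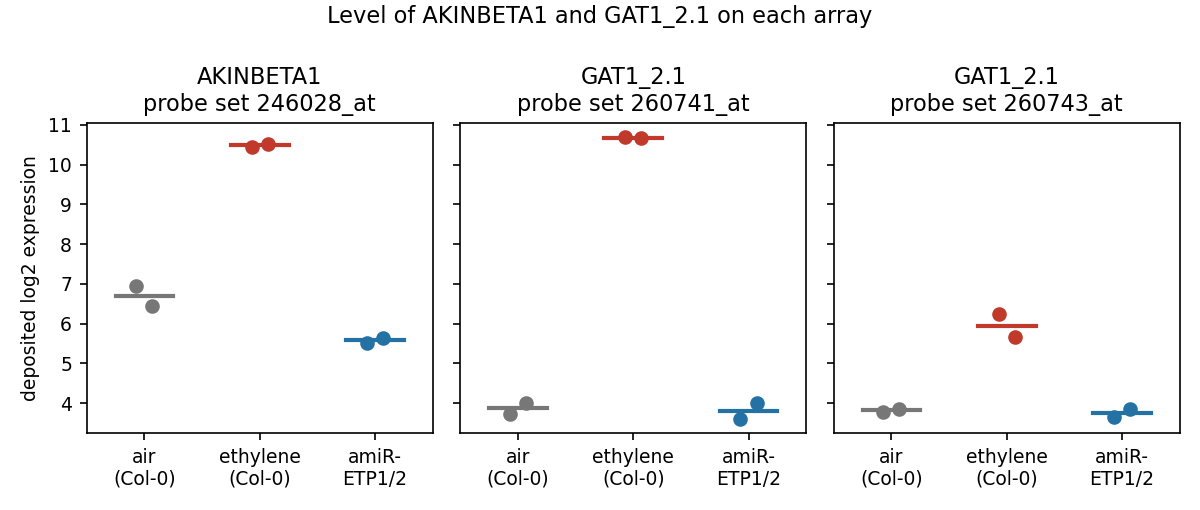
Deposited log2 expression (vertical axis) of AKINBETA1 and of the 2 GAT1_2.1 probe sets in the air, ethylene and amiR-ETP1/2 groups; points are the 2 arrays of a group and bars their mean. AKINBETA1 separates all 3 groups, with amiR-ETP1/2 lowest at a mean of 5.58, an order shared by 7.50% of all probe sets. The points of GAT1_2.1 lie between 3.60 and 4.01 in both air and amiR-ETP1/2.

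The ethylene comparison asked which transcripts differ between treated and untreated Col-0, and both genes were picked from it. The mean of AKINBETA1 was higher under ethylene by 3.79 log2 units (SE 0.18, 13.9-fold), and 183 of the 22746 probe sets (0.805%), its own included, had a difference at least as large. For GAT1_2.1 the difference was 6.82 (SE 0.17, 113-fold) on 260741_at, which 8 probe sets, its own included, reached or passed. On 260743_at it was 2.12 (SE 0.20, 4.36-fold), a size that 822 probe sets (3.61%) reached. Signal over background was not measured, so it is not known whether GAT1_2.1 was detected under air, and its folds and ranks hold for the deposited values only; if it was not detected there, the folds are lower bounds. As the background for these picks, 36.0% of probe sets were called in this comparison by limma at an adjusted p under 0.05, 18.9% higher and 17.1% lower, and 42.4% had an unadjusted p under 0.05. Both ethylene arrays lay above both air arrays for 33.5% of probe sets.

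**Figure D2:**
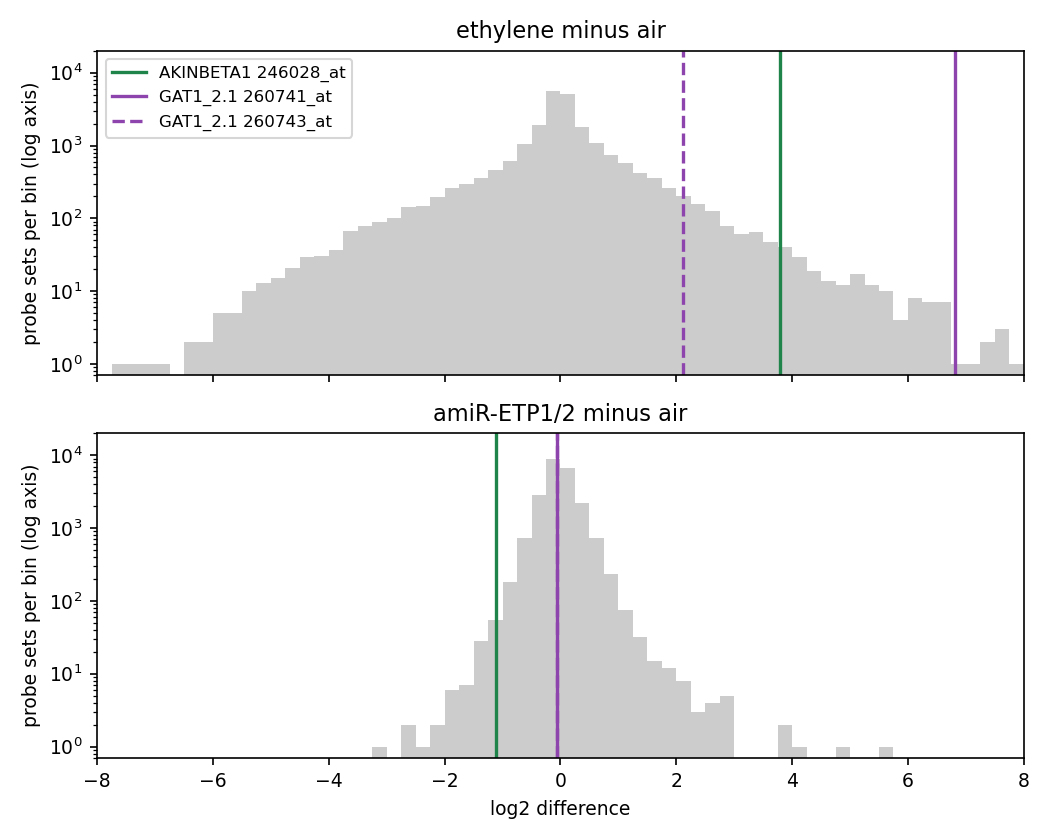
Number of probe sets (vertical axis, log scale) by log2 difference (horizontal axis, bins of 0.25) for ethylene minus air and amiR-ETP1/2 minus air; vertical lines mark AKINBETA1 and the 2 GAT1_2.1 probe sets, whose lines coincide at -0.06 in the second panel. AKINBETA1 lies at 3.79 in the upper panel and at -1.12 in the lower.

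The 2 probe sets of GAT1_2.1 gave ethylene differences 4.69 log2 units apart, so the fold for this gene depends on the probe set read. Of the 144 genes with more than 1 single-gene probe set on the array, GAT1_2.1 had the widest gap. This rank is a description, since the gap is taken from the ethylene differences that chose the gene and its air signal was low on both probe sets. The next was AT3G60420 with 4.36, and the median gap was 0.35. The probe sets of GAT1_2.1 shared the direction under ethylene. In the RefSeq annotation of TAIR10.1 the gene overlaps the protein-coding gene AT1G15030 and the long non-coding RNA gene AT1G05147. The position of the probes within these genes was not known here, and the reason for the gap was not tested.

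**Figure D3:**
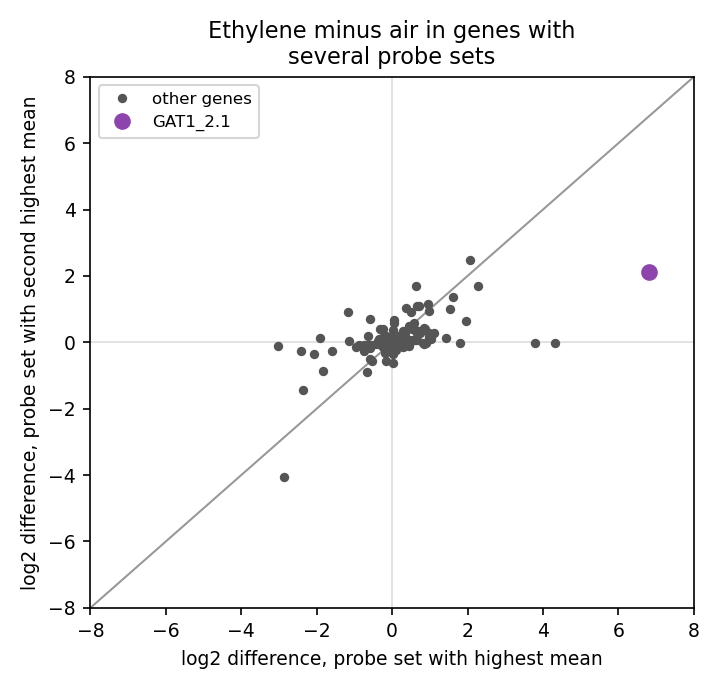
Ethylene minus air log2 difference of the probe set with the highest mean (horizontal axis) against that of the probe set with the second highest mean (vertical axis) for 144 genes with several probe sets; the diagonal marks equal differences. GAT1_2.1, at 6.82 and 2.12, lies farthest from the diagonal.

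The comparison of amiR-ETP1/2 with air asked which transcripts differ in plants that carry the artificial microRNA and have no labelled ethylene treatment. AKINBETA1 was lower in both amiR-ETP1/2 arrays than in both air arrays, by 1.12 log2 units on the means (2.17-fold lower). The SE was 0.18, the 95% interval of the difference ran from -1.55 to -0.69, and the limma test over all probe sets gave an adjusted p of 0.0566, just short of the threshold of 0.05. In all, 71 of 22746 probe sets (0.312%) had a difference as low or lower, its own included, while 0.620% of probe sets were called in either direction, 0.347% higher and 0.273% lower. Both amiR-ETP1/2 arrays lay below both air arrays for 25.6% of probe sets. The adjusted p fell under the threshold in 4 of 12 alternative settings and ranged from 0.0231 to 0.194. These settings were not all distinct, since leaving out either ethylene array gave the same fit of this comparison as the 4 compared arrays alone. The difference was -0.86 without the first air array and -1.38 without the second.

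GAT1_2.1 was not called in this comparison on either probe set. On 260741_at amiR-ETP1/2 minus air was -0.06 (SE 0.17, 95% interval -0.46 to 0.34, limma adjusted p = 0.909), and on 260743_at it was -0.06 (SE 0.20, 95% interval -0.53 to 0.41, limma adjusted p = 0.923). The intervals leave room for changes of about 0.5 log2 units at a signal that is low in both groups. Against the ethylene arrays, the amiR-ETP1/2 difference was -4.91 for AKINBETA1 and -6.88 and -2.19 on the brighter and dimmer GAT1_2.1 probe sets. These last values are given without a test, since they rest on the ethylene arrays from which the genes were picked.

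The other subunits of the SnRK1 complex were examined next. For this and the other lists, a locus is called measured where the annotation table used here names a probe set for that gene alone. Since 8737 probe sets carry no gene name in that table, other loci of the lists may be on the array, and they were not analysed here. Of 9 loci in the SnRK1 list, 3 were measured in this sense, and all 3 encode beta subunits. AT4G16360, listed by RefSeq as KINbeta2, is a second beta subunit gene. It had log2 levels of 6.55 and 6.49 under air, 5.94 and 5.96 under ethylene and 7.02 and 7.39 in amiR-ETP1/2, the reverse order of AKINBETA1 and again without overlap. It fell by 0.57 log2 units under ethylene (SE 0.15, limma adjusted p = 0.0214) and differed by 0.69 in amiR-ETP1/2 (SE 0.15, adjusted p = 0.109). The ethylene call was lost when either ethylene or either air array was left out, with adjusted p between 0.063 and 0.110.

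AT2G28060, listed as KINbeta3, encodes the short plant type of beta subunit that lacks the carbohydrate-binding domain. Its log2 levels were 5.13 and 5.10 under air, 6.10 and 6.20 under ethylene and 4.403 and 4.69 in amiR-ETP1/2, the same order as AKINBETA1. It rose by 1.04 under ethylene (SE 0.14, 2.05-fold, limma adjusted p = 0.000821) and differed by -0.57 in amiR-ETP1/2 (SE 0.14, adjusted p = 0.134). The order of amiR-ETP1/2 below air below ethylene without overlap held for 7.50% of all probe sets, and the reverse order for 6.74%.

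The balance of the beta subunit signals can be followed within each array. The log2 ratio of AKINBETA1 to AT4G16360 was 0.41 and -0.05 under air, 4.52 and 4.56 under ethylene and -1.50 and -1.75 in amiR-ETP1/2. It was therefore higher by 4.36 under ethylene and shifted by -1.804 in amiR-ETP1/2, each against air. The ratio of AKINBETA1 to AT2G28060 was 1.83 and 1.34 under air, 4.35 and 4.33 under ethylene and 1.12 and 0.95 in amiR-ETP1/2, a shift of 2.75 under ethylene and of -0.55 in amiR-ETP1/2. Since probe sets hybridise differently, the shifts between arrays can be read and the ratios themselves cannot. AKINBETA1 was chosen by its ethylene difference, so the ethylene shifts of both ratios follow in large part from that choice. The ratios are given as a description, with no test.

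**Figure D4:**
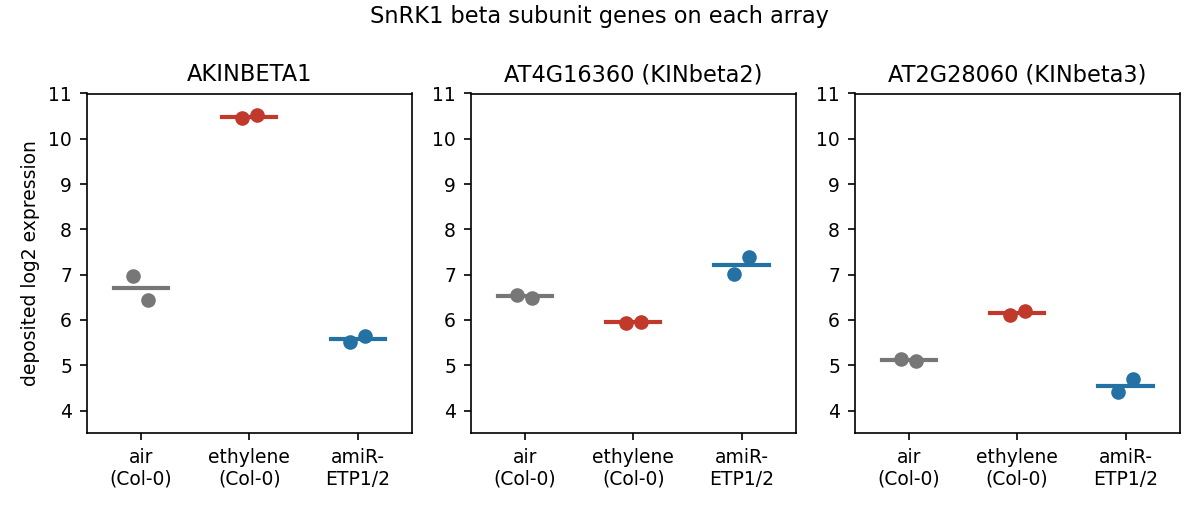
Deposited log2 expression (vertical axis) of the 3 measured SnRK1 beta subunit genes in the air, ethylene and amiR-ETP1/2 groups; points are the 2 arrays of a group and bars their mean. AKINBETA1 and AT2G28060 are highest under ethylene, at means of 10.49 and 6.15, and AT4G16360 is highest in amiR-ETP1/2, at 7.20.

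In the list of proteins with a class I glutamine amidotransferase domain, the ethylene differences besides GAT1_2.1 lay between -1.34 and 1.12. Of 15 loci, 7 besides GAT1_2.1 were measured, with 1 rise, 2 falls and 4 not called in the ethylene comparison, a share of calls near the 36.0% of all probe sets, and a median difference of -0.02 beside -0.0028 over all probe sets. AT1G30820 rose by 1.12 (SE 0.21, limma adjusted p = 0.00487). AT1G63660 fell by 1.34 (SE 0.22, adjusted p = 0.00243), and AT-HF, the glutamine amidotransferase and cyclase of histidine synthesis, fell by 0.72 (SE 0.12, adjusted p = 0.00294). AT1G66860, AT4G30540, AT2G23970 and AT2G23960 had mean levels of 3.51 to 4.06 under air and differences of -0.04 to 0.12. These 4 lay below the array median on every array, and it is not known whether they were detected. In amiR-ETP1/2 0 of these 7 were called by limma, beside 0.620% of all probe sets. At an unadjusted p under 0.05 there were 2, beside 15.1% of all probe sets.

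Few genes known from sugar or nitrogen shortage had a probe set named for them alone in the annotation used, which limits how far the 2 genes can be called starvation markers here. Of 19 loci in the sugar and dark starvation list, 2 were measured and both rose under ethylene. Among all probe sets 18.9% were called higher there, and 2 genes are too few to stand for the list. AT3G15450 had levels of 9.49 and 8.92 under air, 13.00 and 13.07 under ethylene and 8.86 and 8.09 in amiR-ETP1/2 (ethylene difference 3.82, SE 0.28, limma adjusted p = 3.59e-05). PPDK, the pyruvate orthophosphate dikinase that makes phosphoenolpyruvate from pyruvate, had 7.92 and 7.07 under air, 11.51 and 11.74 under ethylene and 8.15 and 8.52 in amiR-ETP1/2 (ethylene difference 4.13, SE 0.28, adjusted p = 2.42e-05). In amiR-ETP1/2 the 2 genes lay on opposite sides of air, at -0.73 (adjusted p = 0.280) and 0.84 (adjusted p = 0.224).

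Of 32 loci in the list of nitrogen uptake, reduction and limitation, 3 were measured. Beside 18.9% of all probe sets, 1 of the 3 rose under ethylene. This was AT1G25550, by 1.001 (SE 0.13, limma adjusted p = 0.000728). NRT2.5, a high-affinity nitrate transporter induced by nitrogen starvation in Arabidopsis, had levels of 3.73 and 3.67 under air, 4.07 and 4.01 under ethylene and 3.78 and 3.85 in amiR-ETP1/2. Its ethylene difference of 0.34 had an adjusted p of 0.0641. URE, the urease that frees ammonium from urea, was at 4.16 in both air and ethylene on average, with a difference of -0.0035 (adjusted p = 0.989). NRT2.5 and URE lay below the array median (4.39 to 4.46) on every array, and it is not known whether they were detected. Of the 3 genes of this list 0 were called in amiR-ETP1/2, beside 0.620% of all probe sets. There 0 had an unadjusted p under 0.05, beside 15.1% of all probe sets.

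In the list of glutamine, glutamate and asparagine metabolism, 3 of 25 loci were measured and 2 rose under ethylene, beside 18.9% of all probe sets. AT5G38710 rose by 1.39 (SE 0.17, limma adjusted p = 0.000436), and ASPGB1, an asparaginase that releases ammonium from asparagine, rose by 0.83 (SE 0.22, adjusted p = 0.0209). The ASPGB1 call was lost without the second ethylene array (adjusted p = 0.154), without the first air array (0.0982) or without the second (0.051). ASPGA1, the other asparaginase, had an ethylene difference of 0.46 (adjusted p = 0.0627). In amiR-ETP1/2 AT5G38710 was at -0.96 from air (SE 0.17, adjusted p = 0.0628), ASPGA1 at -0.61 and ASPGB1 at -0.02. None was called, beside 0.620% of all probe sets.

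Genes that act around SnRK1 gave a mixed picture under ethylene, where 36.0% of all probe sets were called. Of 9 transcription factor loci linked to the kinase, 2 were measured, and BZIP53, which activates genes of proline and asparagine metabolism, rose by 2.61 under ethylene (SE 0.27, 6.11-fold, limma adjusted p = 0.000204) whereas bZIP44 had a difference of 0.22 (adjusted p = 0.602). Of 17 starch breakdown loci, 3 were measured. DPE1, the plastid disproportionating enzyme that recycles short glucans, fell by 2.48 (adjusted p = 1.82e-05), PWD, which phosphorylates starch, fell by 0.49 (adjusted p = 0.0415), and the alpha-amylase gene AMY1 rose by 0.78 (adjusted p = 0.00861). The PWD call was lost without ethylene array 1, air array 1 or air array 2 (adjusted p = 0.235, 0.172 and 0.0592), and the AMY1 call was lost without ethylene array 2 (0.0513). RAPTOR1 and RAPTOR2 are the measured 2 of 7 loci of the TOR growth kinase complex, which opposes SnRK1. They had differences of 0.51 (adjusted p = 0.0814) and -0.49 (adjusted p = 0.0667), with 0 called by limma. Both had an unadjusted p under 0.05, as did 42.4% of all probe sets. None of the 12 loci of trehalose phosphate synthesis was analysed here.

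Across the 11 lists, 31 genes other than AKINBETA1 and GAT1_2.1 were measured of 165 loci. Under ethylene 18 of them were called (58.1%, beside 36.0% of all probe sets), 9 higher and 9 lower, and 4 of the falls were the green tissue markers. In amiR-ETP1/2 0 of 31 were called by limma, beside 0.620% of all probe sets. At an unadjusted p under 0.05 there were 11 (35.5%, beside 15.1% of all probe sets), 7 lower and 4 higher. PWD (-0.88, SE 0.15, adjusted p = 0.0631) and AT5G38710 had the smallest p among them, and both were lower in amiR-ETP1/2 as AKINBETA1 was. The lists were chosen with earlier results of these data known, so these shares describe the genes and do not test them.

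Other genes with the most similar course over the 6 arrays were found by the distance between profiles. Each profile was the 6 log2 values minus the probe set's air mean, and the Euclidean distance was taken to 13433 single-gene probe sets of other genes. The 5 nearest to AKINBETA1 were AT1G19540 (distance 0.625), AT5G05600 (0.687), AT2G40420 (0.710), AT3G15630 (0.710) and AT5G01210 (0.786), where the median distance was 5.61. Their ethylene differences were 3.32 to 3.63, and their amiR-ETP1/2 differences were -1.35 to -0.83. Nearness to AKINBETA1 on all 6 arrays chose these genes, the amiR-ETP1/2 arrays included, so both ranges are given with no test.

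The 5 nearest to GAT1_2.1, on probe set 260741_at, were AT5G39520 (distance 0.399), AT3G19390 (0.563), COR27 (0.813), AT4G38540 (0.935) and MGL (1.01), with a median distance of 9.65. COR27 is a cold-regulated gene tied to the circadian clock, and MGL is the methionine gamma-lyase that breaks down methionine. Their ethylene differences were 6.27 to 6.75. In amiR-ETP1/2 they differed from air by -0.09 to 0.58. These values too were part of the choice of the genes, since the distance uses all 6 arrays, and no test was made of them.

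**Figure D5:**
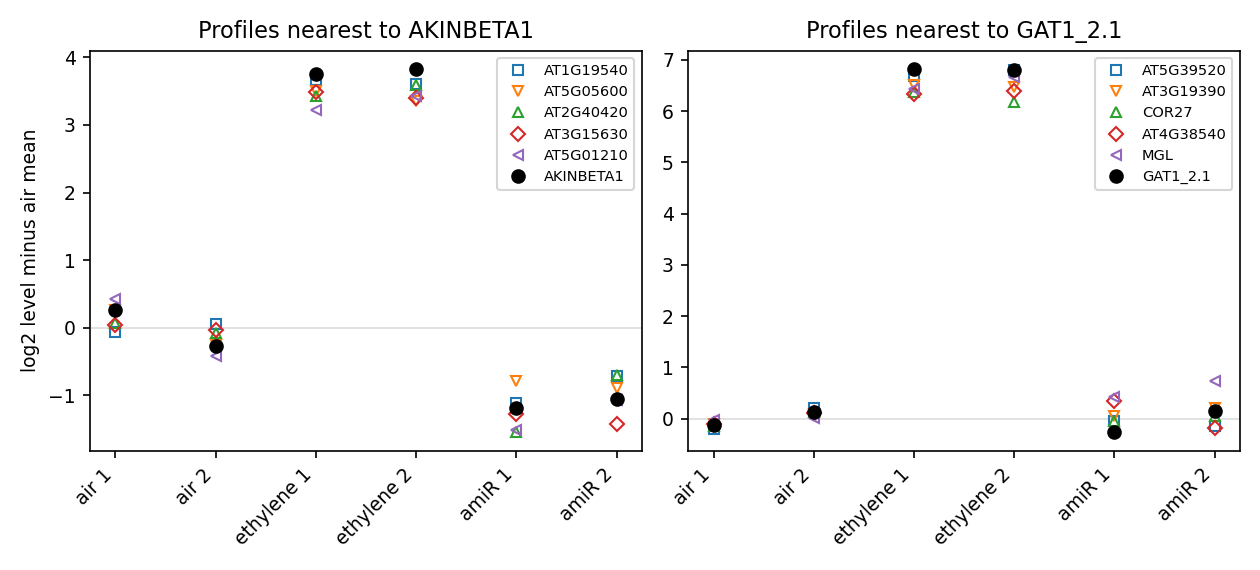
Log2 level minus the air mean of the same probe set (vertical axis) on the 6 arrays (horizontal axis; amiR is amiR-ETP1/2) for AKINBETA1 and GAT1_2.1 (filled circles) and the 5 genes with the nearest profiles (open symbols). All genes of the left panel lie below 0 on both amiR-ETP1/2 arrays, and those of the right panel lie on both sides of 0 there.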

How the data were processed

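The deposited values are 1 log2 expression value per probe set and array, processed by the authors; the log2 scale was read from the values (about 3 to 14) and is not stated. Per the submitters' processing notes limma was used, with no version named; for background, probe summary and normalization the method is not given in the sources used. Values were used as deposited. Of 22753 probe sets, 7 controls were left out and 22746 tested with no filter. The 6 arrays entered 1 fit of group means (limma 3.58.1, R 4.3.3; 3 residual and 4.15 prior degrees of freedom), two-sided, with Benjamini-Hochberg adjustment over all probe sets and a threshold of 0.05; the fit was checked on simulated data. In that check, 54% of simulated ethylene minus air changes of 1 log2 unit were called, and 90% of changes of 2. No change was simulated for amiR-ETP1/2. SEs and 95% intervals come from the fit of the 6 arrays. The number of arrays limits the precision. The design text calls the replicates biological.

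The annotation table named 1 gene for 13513 probe sets, several for 503 and none for 8737; 13436 matched RefSeq TAIR10.1. Only names, chromosomes and neighbouring genes were taken from it. Lists used the probe set with the highest mean per gene. Named genes are AKINBETA1, GAT1_2.1, all measured SnRK1 and glutamine amidotransferase genes, up to 8 per other list and the 5 nearest profiles each; AT3G60420 was chosen after its values were seen. The genes and lists were chosen with earlier results of these data known. The alternatives were quantile normalization, median centring, leaving out the lowest 40% of probe sets, a replicate block, the 4 compared arrays alone, trend and robust options, and leaving out each array.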

Additional observations from a re-analysis of the deposited data

How the results depend on the processing

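For AKINBETA1, amiR-ETP1/2 minus air kept its sign in all 12 alternatives, which were not all distinct fits, and passed the threshold in 4. These were quantile normalization (-1.14, adjusted p = 0.0231), median centring (-1.09, 0.0479), leaving out the lowest 40% of probe sets (-1.12, 0.0302) and the trend and robust options (-1.12, 0.0252); with 1 array left out it ran from -1.38 to -0.86 (adjusted p = 0.0512 to 0.194). With 1 array left out, GAT1_2.1 minus air in amiR-ETP1/2 ran from -0.27 to 0.14 on 260741_at and from -0.16 to 0.04 on 260743_at, with no call and with changes of sign: 0.06 without air array 2 and 0.14 without amiR-ETP1/2 array 1 on the first, and 0.0372 without amiR-ETP1/2 array 1 on the second. Also with 1 array left out, ethylene minus air ran from 3.53 to 4.05 for AKINBETA1 and from 1.83 to 2.41 on 260743_at, and amiR-ETP1/2 minus ethylene from -7.08 to -6.67 on 260741_at and from -2.48 to -1.90 on 260743_at. The replicate block gave AKINBETA1 an adjusted p of 0.122 in amiR-ETP1/2. The labels do not say that replicate numbers pair the arrays, so the main fit used no pairing. Deviations of arrays with the same number correlated at -0.137, -0.169 and 0.0686 across groups, which does not settle whether they were paired.

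The count of probe sets called in amiR-ETP1/2 minus air, 141, was the least stable result: 259 after quantile normalization, 213 after median centring, 232 without the lowest 40%, 233 with trend and robust options, 42 with the replicate block, 247 with a crossed block chosen after seeing the data, and 9 from the compared arrays alone. It was 9 without ethylene array 1 or 2, 28 and 37 without air array 1 and 2, and 229 and 252 without amiR-ETP1/2 array 1 and 2. The ethylene count, 8185, ran from 5980 to 8512 with 1 array left out and was 8612 with the crossed block.

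With ethylene, 1 to 3 members of the glutamine, glutamate and asparagine list (2 in the main setting) and 0 to 1 of the TOR list were called with 1 array left out; trend and robust options called 2 of the nitrogen list and 1 of the TOR list, and lost PWD (adjusted p = 0.0681), as the replicate block did (0.0671). In amiR-ETP1/2, where no list member was called, quantile normalization called 1 in the SnRK1 complex (AKINBETA1), 2 in starch breakdown (PWD and DPE1) and 1 in the glutamine list (AT5G38710). Leaving out the lowest 40% called 1 in each of these lists (AKINBETA1, PWD and AT5G38710), and median centring and the trend and robust options called 1 in the SnRK1 complex. For the SnRK1-linked factors the count was 0 to 1 with 1 array left out, with bZIP44 called without amiR-ETP1/2 array 1. No list gene called in the main setting changed sign. The causes were not tested.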
